A study of Mus musculus with 8 samples.

Results

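The genes of the mitochondrial respiratory chain and ATP synthase were examined in bone marrow-derived dendritic cells (BMDC) that had engulfed ferroptotic cells. Members were the protein-coding genes of the count table whose mouse symbol starts with Ndufa, Ndufb, Ndufc, Ndufs, Ndufv, Uqcr, Cox4 to Cox8, Atp5, mt-Nd, mt-Co, mt-Atp or mt-Cyt, or is Sdha to Sdhd. This rule took 107 of 55487 gene identifiers, 94 on nuclear chromosomes and 13 on the mitochondrial genome, and it used no expression value. The prefixes also took in 8 complex I assembly factors (Ndufaf genes) and Atp5s, which is associated with ATP synthase. Both groups were wild-type dendritic cells grown for 10 days in 20 ng/ml GM-CSF from bone marrow of immunocompetent C57/bl6 mice, described in the study's methods as female C57BL/6J mice aged 6 to 8 weeks. BMDC-fer (WTFER1 to WTFER4) had been co-cultured for 4 h with Jurkat cells, an established human T-cell leukemia line, that were killed with 0.5 µM ML162 for 14 h, and the engulfing BMDC were then sorted. ML162 is a compound that blocks the lipid peroxide-reducing enzyme GPX4 and thereby triggers ferroptosis. The controls (WT1 to WT4) were BMDC with no treatment, so co-culture, cargo and the sort cannot be told apart in this comparison.

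Respiratory complexes I to IV pass electrons from NADH and succinate to oxygen and pump protons out of the mitochondrial matrix at complexes I, III and IV, and ATP synthase (complex V) uses that gradient to make ATP. Most subunits are encoded in the nucleus and imported, while a small core of complexes I, III, IV and V is encoded by mitochondrial DNA, transcribed as long precursor RNAs and cut into single messages. Complex II has nuclear subunits alone. Dendritic cells that are activated by microbial products are known to turn from oxidative phosphorylation towards glycolysis.

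Total counts per library were between 39326672 and 50532209. Of the 107 members, 102 passed the filter on low counts and were tested, 89 nuclear and 13 mitochondrial, among 15411 tested genes in all. Values are given as CPM (counts relative to TMM-normalized library size), always in the order of replicates 1 to 4. Replicates 1 and 2 of each group resembled each other more than they resembled replicates 3 and 4. The labels name no batch, and the split was taken from how the libraries lay in these data, so its p-values are a description of this set of libraries. Over 7 dendritic cell markers the summed level was 7430 to 17436 CPM in BMDC and 3368 to 8499 CPM in BMDC-fer, and all 7 had a log2 fold change below 0 (median -1.62). Flt3 was called lower, and once replicate number entered the fit as a block 6 of the 7 were, all but Itgax (CD11c), which was detected in every library. Over 7 macrophage markers it was 1918 to 3296 CPM and 2283 to 4291 CPM, with 6 of the 7 above 0 (median 0.47), 0 called higher and Adgre1 called lower. Over 8 neutrophil markers it was 44.8 to 261 CPM and 13.9 to 43.7 CPM, with 4 of the 8 called lower and all 8 with the block. Over 6 mast cell and basophil markers it was 32.5 to 64.9 CPM and 14.5 to 33.0 CPM, with 0 of the 3 that were tested called and 1, Cpa3, called lower with the block. Over 10 T-cell markers it was 30.1 to 43.4 CPM and 29.3 to 54.0 CPM, mostly from Cd28. Only 3 of these 10 passed the filter on low counts, which Cd3d and Cd3e did not, and Lck was called lower (-1.59, adjusted p = 0.048 in edgeR). Cd3g had a log2 fold change of -3.57 (adjusted p = 0.070 in edgeR) and was called with the block. The part of these cell type differences in the results was not tested, and fewer cells of a type and less RNA per cell cannot be told apart in bulk samples.

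The 13 mitochondrial genes had the highest levels per length among the members, with the exception of mt-Atp8. They took 4.28%, 3.63%, 3.91% and 4.12% of all counts in the BMDC libraries and 4.87%, 4.77%, 3.74% and 4.02% in the BMDC-fer libraries. The ranges overlapped, and the means were 3.98% ± 0.281 and 4.35% ± 0.555 (SD, n = 4 each). The difference was 0.869 percentage points within replicates 1 and 2 and -0.130 within replicates 3 and 4, and the pooled 0.370 became 0.196 and 0.230 without BMDC-fer replicates 1 and 2 and 0.573 without BMDC-fer replicate 3. Per kilobase of transcript, mt-Co1, the catalytic subunit of complex IV, was the highest in BMDC at 9979 ± 2097 CPM per kilobase (SD, n = 4). It was followed by mt-Co2 at 6210, mt-Atp6 at 5581, mt-Co3 at 4521 and mt-Cytb, the cytochrome b of complex III, at 2809. The complex I genes lay below these, from mt-Nd1 at 2258 to mt-Nd5 at 868 CPM per kilobase. The BMDC ranges of mt-Co1 and mt-Co2 did not overlap, nor did those of mt-Co3 and mt-Cytb, of mt-Nd1 and mt-Nd4, of mt-Nd4l and mt-Nd6, or of mt-Nd5 and mt-Atp8. All other neighbours in this order overlapped. The nuclear subunits tested had medians between 45.7 CPM per kilobase in complex I and 115 CPM per kilobase in complex IV. The libraries were made from mRNA captured on oligo(dT), and most mitochondrial messages carry short poly(A) tails, whose part in these levels was not tested. mt-Nd6 lies on the minus strand (chrM:13552-14070), and its end overlaps that of mt-Nd5, which stops at 13565 on the plus strand. Strandedness is not given in the sources used here, and whether reads counted on mt-Nd6 came from its own strand was not tested.

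**Figure D1:**
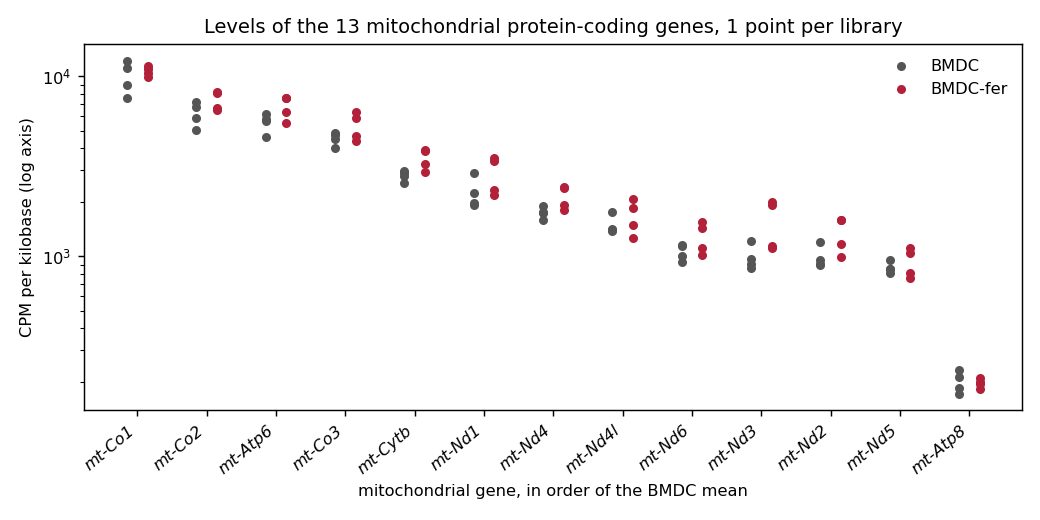
Levels of the 13 mitochondrial protein-coding genes in CPM per kilobase of transcript on a log axis, with 1 point for each of the 4 BMDC and 4 BMDC-fer libraries and the genes in order of their BMDC mean. The order runs from mt-Co1 (mean 9979) to mt-Atp8 (mean 201), and the points of both groups overlap for every gene.

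At the low end, mt-Atp8 was read at 201 ± 27.2 CPM per kilobase in BMDC although it is made on the same message as mt-Atp6, whose level per kilobase was 24.4 to 31.4 times higher in the BMDC libraries and 28.4 to 41.0 times higher in the BMDC-fer libraries. The genes overlap by 43 bases, 21.1% of the 204 bases of mt-Atp8 (GRCm38, chrM:7927-7969, plus strand). How the counting assigned reads that lie on both genes is not given in the sources used here. The overlap is shown in capitals because reads from it cannot be assigned to one gene, with 30 bases of mt-Atp8 before it and 30 bases of mt-Atp6 after it (chrM:7897-7999).
mt-Atp8 and mt-Atp6: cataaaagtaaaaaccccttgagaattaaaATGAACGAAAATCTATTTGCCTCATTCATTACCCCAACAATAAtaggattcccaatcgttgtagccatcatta
The other message that carries overlapping reading frames, that of mt-Nd4l and mt-Nd4, has an overlap of 7 bases (chrM:10167-10173) and is shown the same way.
mt-Nd4l and mt-Nd4: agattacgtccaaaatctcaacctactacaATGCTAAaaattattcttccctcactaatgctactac

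Near-identical nuclear copies of mitochondrial DNA add a second uncertainty. Of all 50-base words of the transcript, 100% of those of mt-Co2, 99.9% of mt-Co3, 99.5% of mt-Atp6, 98.8% of mt-Nd4l and 98.0% of mt-Nd3 also occur in other annotated genes, as do 62.2% of mt-Nd4 and 51.1% of mt-Co1. Most of the nuclear copies had a share of their mitochondrial gene's CPM near the share of its words that they hold, but not all did. Gm28661 had 99.3% to 99.7% of the CPM of mt-Co2 in each library, Gm28437 99.9% to 100% of that of mt-Co3, Gm10222 99.1% to 99.5% of mt-Nd4l and Gm28438 97.1% to 98% of mt-Nd3. Gm29216, which alone holds 28.7% of the words of mt-Co1, had 26.6% to 32% of its CPM. Gm10925 exceeded mt-Atp6, at 125% to 136%, while Gm28439 had 42.9% to 48.6% of mt-Nd4. Whether the same reads were counted on both genes was not tested, and the counts of these 7 genes are uncertain. The other 6 mitochondrial genes share under 20% of their words, and their median log2 fold change, 0.29, was close to that of all 13 genes. Words were sought only in annotated transcripts, so nuclear copies outside these would not be seen, and the counts of these 6 genes may also be uncertain.

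Few respiratory chain genes passed the test between BMDC-fer and BMDC. Of the 89 nuclear members tested, 1 was called higher and 2 were called lower, and of the 13 mitochondrial members 0 were called in either direction. Calls needed both an adjusted p no larger than 0.05 and a log2 fold change of at least 0.58 in size (quasi-likelihood test of edgeR, Benjamini-Hochberg adjustment over all tested genes). Of all tested genes, 3.47% were called higher and 5.91% lower, against 0.98% and 1.96% of the 102 members. At an unadjusted p under 0.05 there were 19 nuclear and 2 mitochondrial members, and DESeq2 called the same numbers of members, 1 nuclear higher, 2 nuclear lower and 0 mitochondrial. The median log2 fold change was 0.18 over nuclear members and 0.27 over mitochondrial members, beside 0.00069 over all tested genes, and 76 of 89 nuclear and 12 of 13 mitochondrial members lay above 0. All 4 BMDC-fer libraries were over all 4 BMDC libraries in 12 nuclear members and 0 mitochondrial members, 11.8% of the 102 beside 11.3% of all tested genes. All 4 BMDC-fer libraries were under all 4 BMDC libraries in 2 members, 1.96% beside 11.6%. With the replicate number as a block, 1 nuclear and 1 mitochondrial member were called higher (background 4.85%) and 2 nuclear members lower (background 8.13%).

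Cox7a2l, described as a factor that links complexes III and IV into supercomplexes, had the largest fall among the called members. Whether its protein has this role in cells of this mouse strain was not tested. Its level was 159, 135, 269 and 286 CPM in BMDC and 99.8, 103, 115 and 106 CPM in BMDC-fer. The groups did not overlap, and the BMDC libraries of replicates 3 and 4 were the highest, while the BMDC-fer libraries lay close together. The log2 fold change was -1.0 (SE 0.24, adjusted p = 0.031 in edgeR), and it was -0.54 within replicates 1 and 2 and -1.33 within replicates 3 and 4 (interaction adjusted p = 0.0022). A pseudogene-like copy, Gm6969, shares 17.7% of its words, so part of its reads may be split. Cox7a2l lies on chromosome 17 from 83501918 to 83517330 on the minus strand (GENCODE M21, GRCm38).

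Ndufaf7, a methyltransferase that modifies a complex I subunit during assembly, was the other member that fell. It was read at 17.1, 15.5, 11.1 and 12.3 CPM in BMDC and at 9.25, 10.3, 7.43 and 7.83 CPM in BMDC-fer. The 4 BMDC-fer libraries were all lower than the 4 BMDC libraries, and both groups were higher in replicates 1 and 2. Its log2 fold change was -0.69 (SE 0.19, adjusted p = 0.046 in edgeR), with -0.74 and -0.62 within the replicate pairs. It lies on chromosome 17 from 78937136 to 78948052 on the plus strand. Without any 1 library the adjusted p of Ndufaf7 was 0.0513 to 0.133, so its call was lost whichever library was left out, and Cox7a2l kept its call in 2 of the 8 such fits (adjusted p 0.0158 to 0.0867).

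Ndufaf4, an early complex I assembly factor, was the nuclear member that rose. It was read at 17.9, 18.4, 18.2 and 15.9 CPM in BMDC and at 30.6, 30.01, 24.7 and 24.8 CPM in BMDC-fer. No library of one group reached the other, and the BMDC-fer libraries of replicates 1 and 2 were highest. The log2 fold change was 0.64 (SE 0.12, adjusted p = 0.015 in edgeR), with 0.74 and 0.54 within the replicate pairs, and it was called in all 8 fits with 1 library left out. With total counts in place of TMM factors its fold change was 0.55, under the threshold, and the call was lost. Ndufaf4 lies on chromosome 4 from 24898083 to 24905001 on the plus strand. None of its 50-base words occurs in another annotated gene.

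Among the mitochondrial genes mt-Nd3, a complex I subunit, had the largest fold change. It was read at 424, 336, 300.4 and 316 CPM in BMDC and at 674, 701, 389 and 399 CPM in BMDC-fer. The groups overlapped, and BMDC-fer replicates 1 and 2 stood above all other libraries. The log2 fold change was 0.65 (SE 0.23, adjusted p = 0.097 in edgeR), and with the replicate block the call changed (0.61, adjusted p = 0.044). The next was mt-Nd2, with 1241, 988, 942 and 925 CPM in BMDC and 1648, 1649, 1029 and 1209 CPM in BMDC-fer (log2 fold change 0.43, adjusted p = 0.165 in edgeR). The remaining mitochondrial genes had log2 fold changes between -0.03, for mt-Atp8, and 0.34, for mt-Nd1. The messages for mt-Co1, at 11680 to 18903 CPM in BMDC and 15403 to 17749 CPM in BMDC-fer, had a log2 fold change of 0.11. Human Jurkat RNA was counted separately by the authors and was not analysed here, and whether human mitochondrial reads were counted on mouse genes was not tested.

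**Figure D2:**
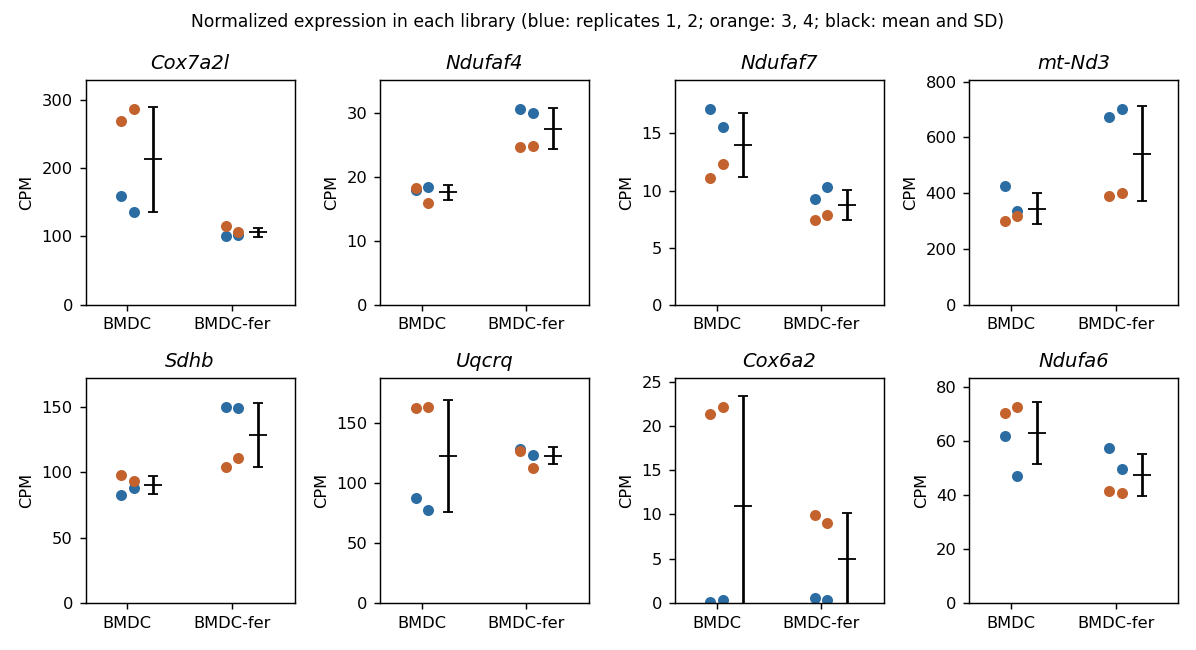
Normalized expression in CPM of 8 genes in each of the 4 BMDC and 4 BMDC-fer libraries, with replicates 1 and 2 in blue, replicates 3 and 4 in orange, and the mean and SD in black (bars below 0 are not drawn). Cox7a2l and Ndufaf7 lay lower and Ndufaf4 and Sdhb higher in every BMDC-fer library, while Cox6a2 was near 0 in replicates 1 and 2 and at 21.3 and 22.1 CPM in BMDC replicates 3 and 4.

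The difference between BMDC-fer and BMDC in these genes was not the same in both replicate pairs. Within replicates 1 and 2 the median log2 fold change was 0.47 over nuclear members and 0.48 over mitochondrial members, beside 0.0055 over all tested genes. Within replicates 3 and 4 it was -0.09 and -0.0079, beside 0.0051, and with total counts the mitochondrial median turned to 0.0080. Log2 fold changes above 0 numbered 94 of 102 members in the first pair and 32 of 102 in the second. The effect was lower in replicates 3 and 4 than in 1 and 2 in 67 members, 60 nuclear and 7 mitochondrial, by edgeR's interaction test at an adjusted p of 0.05 or less. Of these 7 mitochondrial genes, 5 are among those with uncertain counts, and 2 are among the 6 that share few words with other genes. That is 65.7% of the tested members beside 18.3% of all tested genes, and with total counts in place of TMM factors the number was 44. The effect was higher in replicates 3 and 4 in 0 members beside 19.5% of all tested genes. Of the 67, 50 had a fold change above 0 in the first pair and below 0 in the second, 14 lay above 0 in both and 3 below 0 in both. In BMDC itself, 39 members (38.2%, background 26.1%) had higher levels in replicates 3 and 4 than in 1 and 2, so the pairs already differed without ferroptotic cells. Of the 7 dendritic cell markers, 5 were lower and 1, Itgax, was higher in BMDC replicates 3 and 4 than in 1 and 2, and 0 of the 7 passed the interaction test. Cd74 was 9576, 6597, 4183 and 3808 CPM in BMDC and 4811, 3133, 1400 and 1568 CPM in BMDC-fer, while Itgax was 943, 787, 1306 and 1407 CPM in BMDC and 932, 748, 1317 and 1136 CPM in BMDC-fer. Of the 7 macrophage markers, 5 were lower in BMDC replicates 3 and 4, and 1 passed the interaction test. The part of these markers in the pair difference was not tested.

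Within replicates 1 and 2, 21 members were called higher (19 nuclear and 2 mitochondrial, background 9.36%) and 1, Ndufaf7, lower (background 12.9%). Within replicates 3 and 4, 0 members were called higher (background 16.8%) and 4 lower, Cox7a2l, Cox6a2, Ndufa6 and Ndufaf7 (background 16.2%). Each within-pair call rests on 2 libraries against 2 with the spread pooled over both pairs. With total counts in place of TMM factors the median of all tested genes in the first pair moved to -0.19, and relative to it the nuclear members (0.28) and the mitochondrial members (0.29) were still higher. The TMM factors of BMDC replicates 1 and 2 were 1.10 and 1.12, and those of the other libraries 0.95 to 0.98.

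**Figure D3:**
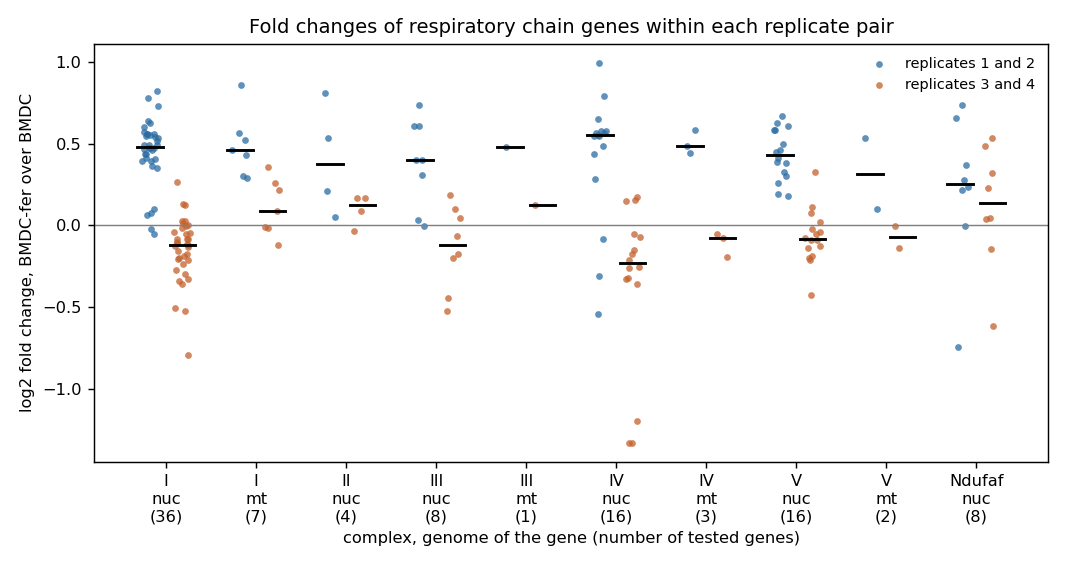
Log2 fold change of BMDC-fer over BMDC for each tested subunit of complexes I to V and each Ndufaf assembly factor, split into nuclear and mitochondrial genes, within replicates 1 and 2 (blue) and within replicates 3 and 4 (orange), with black bars at the medians. For complex I nuclear subunits the medians were 0.48 and -0.12, and for complex IV nuclear subunits 0.55 and -0.23.

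Complex I, the entry point of electrons from NADH, had 36 nuclear subunits tested, and 0 were called. Their median log2 fold change was 0.19, and 29 of the 36 passed the interaction test with a lower effect in replicates 3 and 4 (80.6%, background 18.3%). The highest was Ndufab1, the mitochondrial acyl carrier protein, with 32.0, 32.8, 32.5 and 32.5 CPM in BMDC and 48.4, 47.1, 39.7 and 38.2 CPM in BMDC-fer. Its groups did not overlap, but its log2 fold change of 0.42 was under the fold threshold (adjusted p = 0.041 in edgeR). The lowest was Ndufa6, with 62.0, 47.1, 70.4 and 72.4 CPM in BMDC and 57.5, 49.7, 41.6 and 40.7 CPM in BMDC-fer. Its groups overlapped, and its effect was -0.02 in the first pair and -0.79 in the second (interaction adjusted p = 0.0093). Of the 8 Ndufaf assembly factors, 4 (Ndufaf1, Ndufaf2, Ndufaf4 and Ndufaf6) had all BMDC-fer libraries above all BMDC libraries (50%, background 11.3%), and 1, Ndufaf8, passed the interaction test. Of the 50-base words of Ndufaf2, 80.9% also occur in another annotated gene, so its counts are uncertain. For Ndufaf1, which acts in the membrane arm of complex I, the effect was 0.24 and 0.48 in the pairs, the largest gain in the second pair over the first among nuclear members (interaction adjusted p = 0.22).

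Complex II, succinate dehydrogenase, links the TCA cycle to the chain. Sdhb, its iron-sulfur subunit, was read at 82.5, 88.0, 98.0 and 93.3 CPM in BMDC and at 150, 149, 104 and 111 CPM in BMDC-fer. The groups did not overlap, with replicates 1 and 2 of BMDC-fer far above the rest (log2 fold change 0.51, adjusted p = 0.054 in edgeR). Within the pairs its log2 fold change was 0.81 and 0.17, with an interaction adjusted p of 0.0018. Sdhc, a membrane anchor, also had no overlap (0.31, adjusted p = 0.100 in edgeR), while Sdha, the flavoprotein, and Sdhd, the second anchor, had log2 fold changes of 0.11 and 0.08.

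Complex III had 8 nuclear subunits tested and 0 called. Uqcr11, a small subunit, had the highest log2 fold change, 0.44 (0.74 and 0.10 in the pairs), and Uqcrfs1, the Rieske iron-sulfur protein, the lowest, -0.28 (0.00 and -0.52). Uqcrq, another small subunit, had the lowest interaction p of all members. Its level was 87.3, 77.8, 162 and 163 CPM in BMDC and 129, 123, 127 and 113 CPM in BMDC-fer. The BMDC pairs lay on either side of the 4 BMDC-fer libraries, which were close together, so the pooled log2 fold change was 0.00 while the pairs gave 0.61 and -0.44 (interaction adjusted p = 0.00041).

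Complex V had 16 nuclear subunits tested and 0 called, and 13 of the 16 passed the interaction test with a lower effect in replicates 3 and 4 (81.2%, background 18.3%). The most abundant per length was Atp5b, the catalytic beta subunit, at 389.9 CPM per kilobase in BMDC and 400.8 in BMDC-fer. The 3 genes for subunit c, whose ring turns with the proton flow, encode the same mature protein and differ in their import sequences. They had log2 fold changes of 0.47 (Atp5g1, adjusted p = 0.101 in edgeR), -0.08 (Atp5g2) and 0.28 (Atp5g3). Atp5g1 took 18.6% to 23.5% of their summed CPM in BMDC and 23.8% to 25.8% in BMDC-fer, and Atp5g2 took 27.7% to 36.7% and 24.9% to 27.0%. The shares of the 2 groups did not overlap for either gene.

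**Figure D4:**
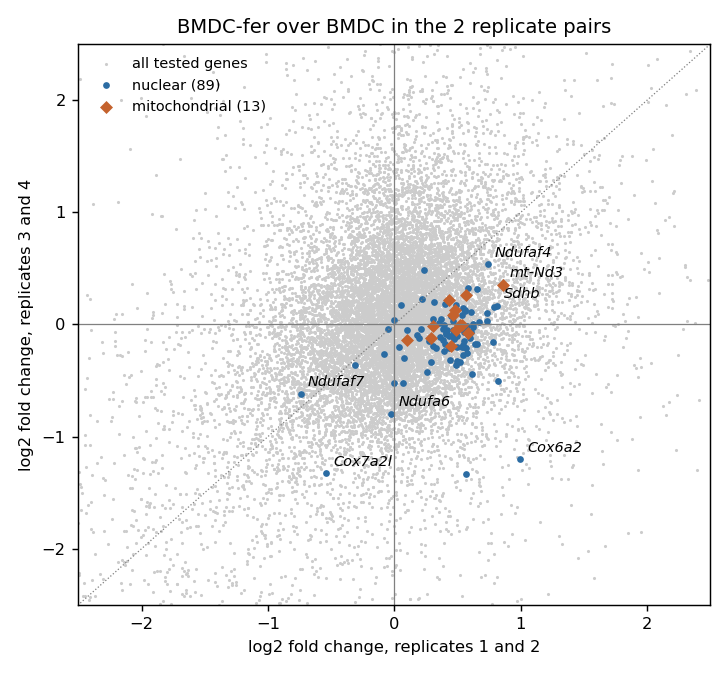
Log2 fold change of BMDC-fer over BMDC within replicates 1 and 2 (x axis) against that within replicates 3 and 4 (y axis), with all tested genes in grey, nuclear members in blue, mitochondrial members as orange diamonds and a dotted line of equal change. The axes stop at 2.5 on either side, and 509 genes lie outside them. Most members lay to the right of 0 on the x axis and near 0 on the y axis, 94 of 102 above 0 in the first pair and 32 of 102 in the second.

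Complex IV, cytochrome c oxidase, has subunits with tissue-specific isoforms. Of its 16 tested nuclear subunits, 1 was called lower (Cox7a2l) and 0 higher. Cox4i1, the general form of subunit 4, was read at 304 to 496 CPM in BMDC, and the lung and oxygen-regulated form Cox4i2 took 0.0476% to 0.0968% of the sum of both. Cox6b2, the testis form, was read at 0.168 to 0.898 CPM in BMDC, and Cox7a1, the muscle form, at 1.59 to 2.96 CPM. Cox7a2, the general form, was read at 74.9, 67.8, 77.8 and 77.7 CPM in BMDC and at 125, 122, 88.3 and 84.5 CPM in BMDC-fer. These did not overlap (log2 fold change 0.49, adjusted p = 0.065 in edgeR), and Cox7a2 lay above its BMDC level where Cox7a2l lay below.

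Cox6a2, the heart and muscle form of subunit 6A, separated the replicate pairs. It was read at 0.138, 0.274, 21.3 and 22.1 CPM in BMDC and at 0.526, 0.294, 9.90 and 9.005 CPM in BMDC-fer. In counts this was 6 and 13 in BMDC replicates 1 and 2 and 901 and 886 in replicates 3 and 4. The pooled log2 fold change was -1.15 with a standard error of 1.52 (adjusted p = 0.640 in edgeR), while within replicates 3 and 4 it was -1.20 (adjusted p = 0.00071) and within replicates 1 and 2 it was 0.99 (adjusted p = 0.070). It took 8.28% and 8.51% of the sum of Cox6a1 and Cox6a2 in BMDC replicates 3 and 4. Cox8a, the general form of subunit 8, had a log2 fold change of 0.05, and its muscle and testis relatives Cox8b and Cox8c had at most 3 counts and 0 counts in a library. Cox7b2 also had 0 counts in every library, which allows up to 3 counts, or 0.0607 to 0.0785 CPM (counting error alone, as reads that carry no molecular identifiers may be copies of one molecule).

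Ndufa4, named as a complex I gene but a subunit of complex IV, was read at 37.5 to 51.9 CPM in BMDC and 29.8 to 64.6 CPM in BMDC-fer (log2 fold change 0.03). AA467197 (Nmes1), a relative that can take its place during inflammation, was read at 69.2, 47.1, 190 and 229 CPM in BMDC and at 118, 104, 202 and 146 CPM in BMDC-fer. Its pooled log2 fold change was 0.09 (adjusted p = 0.91 in edgeR), with 0.93 and -0.27 in the pairs. It took 55.7% to 85.7% of the sum of both genes in BMDC and 64.6% to 87.1% in BMDC-fer. Ndufa4l2, a form known to be induced by low oxygen, was not tested, with 0, 1, 16 and 22 counts in BMDC and 1, 0, 10 and 4 counts in BMDC-fer. A second identifier for Atp5o had 0 counts in every library.

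Genes that build and supply the chain were taken from lists outside the prefixes. Of 36 tested assembly factors, 2 rose (5.56%, background 3.47%) and 0 fell (background 5.91%). All BMDC-fer libraries lay above all BMDC libraries in 38.9% of them (background 11.3%), and below in 0 (background 11.6%). In the following lists the share above was 31.6% of electron carrier genes, 22.2% of mitochondrial DNA genes and 37.5% of regulators. It was 31.2% of mitochondrial ribosomal protein genes, 20% of carriers and uncouplers and 7.14% of TCA cycle genes. In this order, 1, 1, 2, 0, 0 and 1 genes lay below. Cox19, a copper-handling factor for complex IV, went from 13.99, 15.5, 13.2 and 12.7 CPM to 23.5, 27.3, 24.6 and 27.4 CPM (log2 fold change 0.89, adjusted p = 0.0047 in edgeR). Coa4, another complex IV assembly factor, went from 11.3, 10.4, 9.13 and 8.21 CPM to 18.3, 17.6, 20.3 and 19.1 CPM (0.95, adjusted p = 0.0062 in edgeR). In both genes no library of one group reached the other, the pairs had the same direction, and the call held with each library left out. The extremes of the list were Tmem126b, a complex I factor, at 1.09 (adjusted p = 0.155 in edgeR) and Nubpl, which loads its iron-sulfur clusters, at -0.34.

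Of 19 electron carrier and ubiquinone synthesis genes, 1 rose (5.26%, background 3.47%), the methyltransferase Coq3 (0.87, adjusted p = 0.011 in edgeR), and 0 fell, with Coq8a the lowest at -1.15 (adjusted p = 0.052 in edgeR, and 0.028 with the replicate block). Of 27 genes for copying and expressing mitochondrial DNA, 1 rose (3.7%, the same background), Fastkd1 (0.74, adjusted p = 0.036 in edgeR), and 0 fell, with Fastkd5 at 1.37 and Mterf2 at -0.78 as the extremes (adjusted p = 0.20 in edgeR and 0.28). Fastkd1 kept its call without BMDC replicate 1 or 2 and lost it without any other library (adjusted p up to 0.104) and with total counts. Of 8 tested transcriptional regulators, 1 rose and 1 fell. Ppargc1b, a coactivator of mitochondrial genes, rose by a log2 fold change of 0.68 (adjusted p = 0.047 in edgeR), and Gabpb1, a subunit of an ETS-type regulator of respiratory genes, fell by 0.61 (adjusted p = 0.040 in edgeR). Ppargc1b kept its call in 1 of the 8 fits with a library left out, the one without BMDC replicate 2, and Gabpb1 in 2, those without BMDC replicate 2 or BMDC-fer replicate 1. With the replicate block both calls were lost (adjusted p = 0.053 and 0.065), and Myc (0.92, adjusted p = 0.022, against 0.81 and 0.15 without the block) and Esrra, a nuclear receptor that acts on respiratory genes, were called (0.66, adjusted p = 0.033, against 0.61 and 0.091 without the block).

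Of 77 mitochondrial ribosomal protein genes, 3 rose, Mrpl50, Mrpl1 and Mrpl17 (0.62, 0.61 and 0.58), and 0 fell. That is 3.9%, near the background of 3.47%. With total counts all 3 calls were lost. Mrpl50 kept its call without BMDC replicate 1 or 2 and lost it without any other library, Mrpl17 lost it without BMDC replicate 3 or 4 or BMDC-fer replicate 1 or 2, and Mrpl1 without replicate 4 of either group. Mrps6 had the highest log2 fold change, 0.82 (adjusted p = 0.057 in edgeR, and 0.019 with the block), and Mrps12 the lowest, -0.14. Their median log2 fold change was 0.23, with 0.38 and 0.07 in the pairs, and by the interaction test 34 of 77 had a lower effect in replicates 3 and 4 (44.2%, background 18.3%) and 3 a higher one (background 19.5%). Of 14 TCA cycle genes 0 were called, with Acod1, the itaconate-making enzyme, the highest at 1.30 (adjusted p = 0.16 in edgeR, called with the block at 0.0061) and Suclg2 the lowest at -0.21. Of 10 tested carriers and uncouplers 0 were called, with Ucp2, an uncoupling protein relative, highest at 0.52 (adjusted p = 0.027 in edgeR, under the fold threshold) and Higd2a lowest at -0.22.

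Promoters of nuclear members were compared because their fold changes moved together within pairs. RefSeq promoter windows of 300 bases (GRCm38.p6, 250 before and 50 after the start) were found for 76 nuclear members. On either strand, 22 of the 76 held GCGCANGCG, the NRF1 motif (28.9%, beside 7.03% of 27025 genes with a window). CCGGAAG, an ETS motif, was in 18 (23.7%, beside 9.93%), and AAGATGGCG, a YY1 motif, in 8 (10.5%, beside 1.64%). At least 1 of these 3 motifs was in 51.3% of the members and 16.5% of all genes, and in 60% of the 50 members with a window that passed the interaction test. A match is a description of the letters and not a binding site. The 27025 genes were not limited to those tested here, so the shares were not compared with those of other expressed genes. The part of these motifs in the fold changes was not tested. For 10 of the 76 the RefSeq start lies more than 250 bases from the GENCODE start that was used. One of these is Atp5o, which was measured against its second identifier, the one with 0 counts. The tested Atp5o gene starts at 91931687 on the minus strand of chromosome 16, close to the RefSeq start at 91931630. The windows of the 3 called members and of Ndufs6, which passed the interaction test (0.55 and -0.20 in the pairs), are shown from 250 bases before to 20 bases after the RefSeq start, with matches to these motifs in capitals. Cox7a2l is at chr17:83514314-83514583 (minus strand), around a RefSeq start 2997 bases inside the GENCODE gene, Ndufaf7 at chr17:78936885-78937154 (plus strand), Ndufaf4 at chr4:24897833-24898102 (plus strand) and Ndufs6 at chr13:73328463-73328732 (minus strand).
Cox7a2l: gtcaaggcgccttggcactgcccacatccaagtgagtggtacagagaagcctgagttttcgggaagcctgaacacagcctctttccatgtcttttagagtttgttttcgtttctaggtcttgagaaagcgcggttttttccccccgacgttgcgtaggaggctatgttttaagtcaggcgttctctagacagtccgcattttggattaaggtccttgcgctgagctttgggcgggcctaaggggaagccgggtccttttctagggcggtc
Ndufaf7: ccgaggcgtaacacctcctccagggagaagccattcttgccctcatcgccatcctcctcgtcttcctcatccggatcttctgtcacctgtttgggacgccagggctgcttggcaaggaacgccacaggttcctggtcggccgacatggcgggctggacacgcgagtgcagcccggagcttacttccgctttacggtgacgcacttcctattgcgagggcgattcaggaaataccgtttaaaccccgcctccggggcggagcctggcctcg
Ndufaf4: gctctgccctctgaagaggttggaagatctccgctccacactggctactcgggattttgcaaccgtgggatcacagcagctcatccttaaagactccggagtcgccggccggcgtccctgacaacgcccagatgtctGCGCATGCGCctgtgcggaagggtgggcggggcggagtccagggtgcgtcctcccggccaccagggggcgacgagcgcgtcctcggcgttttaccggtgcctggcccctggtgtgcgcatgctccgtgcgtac
Ndufs6: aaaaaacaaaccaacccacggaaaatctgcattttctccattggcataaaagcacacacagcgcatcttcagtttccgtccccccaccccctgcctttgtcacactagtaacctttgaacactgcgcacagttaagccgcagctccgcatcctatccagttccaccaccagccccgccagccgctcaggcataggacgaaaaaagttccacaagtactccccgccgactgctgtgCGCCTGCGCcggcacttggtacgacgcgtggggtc
Within these stretches Cox7a2l and Ndufaf7 held no match, and those of Ndufaf4 and Ndufs6 each held the NRF1 motif. The searched window of Ndufs6 also held a YY1 match, beyond the stretch shown.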

How the data were processed

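RNA of 4 BMDC and 4 BMDC-fer libraries was sequenced. Per the labels and the paper, the authors mapped filtered reads with HISAT2 to mm10 and counted them per gene with featureCounts, and the deposited table holds whole-number counts per mouse gene, which entered the tests unaltered. CASAVA and DESeq2 also stand in the submitters' processing notes. The gene annotation, strandedness and treatment of multi-mapped reads are not given in the sources used here. Symbols, lengths and coordinates came from GENCODE M21 (GRCm38), which named 55227 of 55487 identifiers, and 13 symbols of the rule that are not protein-coding were left out.

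Quasi-likelihood tests ran in edgeR 4.0.16 (R 4.3.3) after TMM normalization and filterByExpr (minimum count 10), and calls needed an adjusted p (Benjamini-Hochberg) up to 0.05 with a log2 fold change of at least 0.58 in size. Standard errors were derived from the F statistic. The alternatives were DESeq2 1.42.0, RLE size factors, total counts, library sizes without mitochondrial genes, no filter, a filter of 1 CPM in 4 libraries, the replicate number as a block, the replicate pair as a covariate, no fold change threshold and each library left out. Fits within replicate pairs were added after the data were seen. The members and the gene lists were chosen with earlier results of these data known. The 13 mitochondrial genes, the called and extreme members of each complex, the isoform families and the called and extreme genes of each other list form the named set. Some other genes in the text, such as Uqcrq, Ndufs6 and Esrra, are outside it. Deviations from the group means of same-numbered BMDC and BMDC-fer libraries, a pairing taken from the labels' numbers, correlated at 0.333 to 0.47 across genes. Libraries of unlike number were not compared. The replicate pairs lay apart in both groups, so these values cannot show whether the single numbers pair the samples. No libraries were duplicates. The study describes the samples as independently collected. The p-values of the main test measure the spread among the 4 libraries of each group, which fell into 2 replicate pairs. Those of the within-pair and interaction tests measure only the smaller spread inside the replicate pairs. The main edgeR test, its form with the replicate block, DESeq2 and the interaction test were checked on simulated counts, and the other steps were not. The simulated counts held no baseline difference between the replicate pairs, so they cannot show how these tests behave with the split seen here.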

Additional observations from a re-analysis of the deposited data

Results flagged for a closer look

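The tested genes of the named set gave 120 groups of 4 libraries. In 3 of these groups 1 library stood far from the other 3, where chance gives about 1 in 20 groups. The gap to the nearest library, as a share of the group's whole range, is compared with Dixon's critical value. For mt-Nd4l in BMDC the share was 0.882, with replicate 1 at 525 CPM and the others at 424, 418 and 410 CPM. For Ndufaf4 in BMDC it was 0.835, with replicate 4 at 15.9 CPM and the others at 17.9, 18.4 and 18.2 CPM. For Cox6b2 in BMDC-fer it was 0.876, with replicate 3 at 0.767 CPM and the others at 0.243, 0.220 and 0.288 CPM.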

How the results depend on the processing

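Of the values for the 60 tested genes of the named set, 500 of 537 under other settings kept their direction and their side of the threshold. With 1 library left out 417 of 480 did. Most of these genes were not called in the main test, so these totals say little about the calls. Called genes lost their call in 14 of the 537 values and in 45 of the 480. DESeq2 called 2261 genes in all, and the replicate pair as a covariate 2815, against 1445. Total counts left 0 nuclear members higher and 1 lower, and 44 members with an effect that differed between the pairs. No filter on low counts left 1 nuclear member lower. The replicate block and the pair covariate each called 1 mitochondrial member higher, mt-Nd3, and the block changed no other call of a member. Without a fold change threshold 2 nuclear members were higher. Within replicates 1 and 2, fits added after the data were seen, 3435 genes were called, with 19 nuclear and 2 mitochondrial members higher and 1 nuclear lower. Within replicates 3 and 4 there were 5092 genes, with 0 nuclear members higher and 4 lower. Total counts ended the call of Ndufaf4. As a share of all members' counts, the mitochondrial genes differed by 0.878 percentage points, from a mean of 81.7% in BMDC to 82.6% in BMDC-fer. As a share of all counts they differed by 0.370, from a mean of 3.98% to 4.35%. That difference ranged from 0.196 to 0.573 with each library left out. The 2 differences start from unlike levels, so their sizes cannot be compared directly. The signs of genes that were not called turned for Sdhd (-0.0025), Cox8a (-0.023) and Ndufa4 (-0.069) with total counts, and for Ndufa4 with the block (-0.026) and the pair covariate (-0.022). The cause was not tested.

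With each library left out, 565 to 1440 genes were called (565 without BMDC-fer replicate 4, 797 and 867 without its replicates 2 and 3, 862 and 879 without BMDC replicates 3 and 4), with 1 to 2 nuclear members higher (2 without BMDC-fer replicate 3) and 0 to 1 lower (1 without BMDC replicate 1 or 2, 0 without any other). Such fits also turned the sign of log2 fold changes that were not called, which ranged from -0.085 to 0.052 for mt-Atp8, -0.53 to 0.27 for Cox4i2, -0.95 to 0.11 for Cox6b2, -0.012 to 0.25 for Cox7a1, -0.031 to 0.13 for Cox8a, -0.23 to 0.17 for Ndufa4 and -0.18 to 0.48 for AA467197. Depth limits Cox4i2, Cox6b2 and Ndufa4l2, with 36 counts or fewer in every library.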
